A study of Mus musculus with 9 samples.

Results

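DNA replication genes were followed on expression arrays of mouse embryonic stem cells after knockdown of Phf5a or Paf1. The set is a list of 44 genes that encode the proteins that license origins, unwind DNA, synthesise and join new strands, hold single strands and supply deoxynucleotides. Members were found by gene symbol in the platform's annotation, and a gene with several probe sets was read from the brightest of them over the 9 arrays. That gave 43 genes of the 22180 measured, from a table of 33793 probe sets. Rfc4, a clamp loader subunit, is listed only on a probe set shared with another gene and was not analysed here.

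Replication begins with licensing, in which the origin recognition complex, Cdc6 and Cdt1 load the ring-shaped MCM helicase onto DNA, and geminin (Gmnn) blocks Cdt1 so that origins fire once per cycle. Cdc45 and the GINS complex then join MCM to form the moving helicase, primase and DNA polymerase alpha lay down primers, polymerases epsilon and delta extend the strands on the sliding clamp Pcna, and Fen1 and Lig1 trim and seal lagging-strand fragments. Embryonic stem cells have short gap phases and spend much of their cycle in S phase, and they carry these transcripts at high levels. Phf5a is a small protein of the SF3B complex of the U2 splicing particle that has also been linked to the Paf1 complex, and Paf1 gives its name to a complex that travels with elongating RNA polymerase II.

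The cells were of the NG4 line, a 129/Sv line with a Nanog-GFP reporter, grown with LIF on gelatin. All 3 groups carried a pLKO.1 lentivirus and were selected with puromycin at 2 µg/mL for 72 h. They differed in the hairpin, which was a control (shControl), 1 against Phf5a (shPhf5a) or 1 against Paf1 (shPaf1), with 3 arrays each. With 1 hairpin per target, effects on other transcripts of the same hairpin cannot be told apart from those of its target, and the labels do not state whether replicates are separate cultures. The p-values therefore cover only the spread among these samples, which may be technical. Values were read as log2 expression values, 1 unit being a 2-fold change. A gene was called when limma's adjusted p over all 22180 genes was under 0.05, and only called genes are said to have risen or fallen.

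The arrays had medians between 6.22 and 6.31. Replicate 2 of shPhf5a was the farthest from the others of its group. Over all genes its differences from replicates 1 and 3 had SDs of 0.226 and 0.188, against 0.163 between replicates 1 and 3. Pairs within the other groups had SDs of 0.120 to 0.132, so every pair of shPhf5a was wider than those. Results that rest on it are also given without it. Phf5a was at 34.4%, 55.9% and 39.6% of the control mean on shPhf5a replicates 1, 2 and 3, and Paf1 was at 37.7%, 38.9% and 38.0% on the shPaf1 arrays. The groups crossed over in part, since Phf5a stood at 62.0% to 76.2% of control in shPaf1 (adjusted p = 0.0183) and Paf1 at 76.5% to 95.7% in shPhf5a (adjusted p = 0.0267). All 10 stem cell markers examined lay above the median level of all genes (6.70) in every group. Of them 8 fell and Tfcp2l1 rose in shPhf5a, and 8 fell in shPaf1. Their summed level, as log2, was 14.9 on the control arrays, 14.5 to 14.7 in shPhf5a and 14.4 in shPaf1. Of 10 fibroblast markers 0 fell in either knockdown, 1 (Pdgfra) rose in shPhf5a and 3 (Col1a1, Dcn and Pdgfra) rose in shPaf1, and their summed level was 9.45 to 9.47 in controls, 9.47 to 9.56 in shPhf5a and 9.69 to 9.78 in shPaf1. Of 5 measured macrophage and blood markers, Cd68 alone lay above the median level, falling in shPhf5a and rising in shPaf1, with summed levels of 10.3 to 10.4, 9.86 to 10.1 and 10.6 to 10.9. The part that these shifts have in the results below was not tested. In RNA from whole cultures, fewer cells in a given state and less RNA per cell cannot be told apart.

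The promoters of several members that the results turn on are shown first, because many genes of S phase share short recognition elements for E2F factors near their start. Windows of 300 bases, from 250 before to 50 after a start, were taken from RefSeq on GRCm38.p6, where 36 of the 44 listed genes matched, with 44 windows. Gins1, Gins2, Gins4, Gmnn, Mcm4, Pole, Prim2 and Rfc2 had no window and are left out of all promoter counts and medians. Among these, Gins2, Gmnn, Rfc2, Gins4 and Gins1 had some of the larger falls given below. The letters searched, on both strands and with overlapping matches allowed, were TTCCCGC or TTCGCGC or TTGCCGC or TTGGCGC. Such a match was present in 27 of 44 windows (61.4%), against 9.57% of all 32851 windows and 16.9% of the 11135 windows of genes above the median array level. The CCAAT box, searched as CCAAT on both strands, was present in 26 of 44 windows (59.1%), against 37.4% and 38.0%. The 6 windows below belong to Pclaf (chr9:65890073-65890372, plus strand), Pole2 (chr12:69228141-69228440, minus strand), Rfc3 (chr5:151651159-151651458, minus strand) and Cdc6 (chr11:98907901-98908200, plus strand), which were among the lowest in shPhf5a, and to Rpa3 (chr6:8259092-8259391, minus strand) and Orc3 (chr4:34614893-34615192, minus strand), which stood lower in shPaf1 than in shPhf5a. Each reads 5′ to 3′ toward the gene, with matches to the E2F-type letters in capitals.
Pclaf: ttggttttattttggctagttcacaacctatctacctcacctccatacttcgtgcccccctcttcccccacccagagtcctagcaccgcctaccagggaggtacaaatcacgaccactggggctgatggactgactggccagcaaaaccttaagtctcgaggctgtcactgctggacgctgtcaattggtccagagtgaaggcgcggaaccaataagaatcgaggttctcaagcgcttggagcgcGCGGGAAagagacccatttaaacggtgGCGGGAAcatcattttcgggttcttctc
Pole2: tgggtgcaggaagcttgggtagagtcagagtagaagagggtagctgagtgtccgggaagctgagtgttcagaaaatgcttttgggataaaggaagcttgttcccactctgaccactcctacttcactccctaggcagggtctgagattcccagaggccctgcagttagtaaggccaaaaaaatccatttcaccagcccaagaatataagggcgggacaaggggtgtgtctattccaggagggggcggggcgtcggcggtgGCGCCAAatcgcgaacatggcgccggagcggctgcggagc
Rfc3: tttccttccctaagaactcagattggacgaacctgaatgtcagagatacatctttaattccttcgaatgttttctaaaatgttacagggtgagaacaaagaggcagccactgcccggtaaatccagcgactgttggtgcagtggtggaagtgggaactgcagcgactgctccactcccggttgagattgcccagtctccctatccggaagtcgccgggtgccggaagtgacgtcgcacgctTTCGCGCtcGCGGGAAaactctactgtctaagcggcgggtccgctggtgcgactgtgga
Cdc6: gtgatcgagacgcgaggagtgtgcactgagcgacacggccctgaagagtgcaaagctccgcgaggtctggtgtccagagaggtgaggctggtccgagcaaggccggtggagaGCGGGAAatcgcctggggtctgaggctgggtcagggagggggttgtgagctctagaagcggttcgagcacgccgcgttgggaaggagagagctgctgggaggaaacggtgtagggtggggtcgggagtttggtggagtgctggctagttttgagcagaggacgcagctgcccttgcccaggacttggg
Rpa3: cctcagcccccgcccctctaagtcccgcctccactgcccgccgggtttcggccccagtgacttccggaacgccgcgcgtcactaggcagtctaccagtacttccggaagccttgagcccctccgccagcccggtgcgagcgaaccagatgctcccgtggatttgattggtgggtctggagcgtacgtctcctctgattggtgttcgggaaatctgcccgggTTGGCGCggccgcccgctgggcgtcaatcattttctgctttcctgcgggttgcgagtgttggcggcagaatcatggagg
Orc3: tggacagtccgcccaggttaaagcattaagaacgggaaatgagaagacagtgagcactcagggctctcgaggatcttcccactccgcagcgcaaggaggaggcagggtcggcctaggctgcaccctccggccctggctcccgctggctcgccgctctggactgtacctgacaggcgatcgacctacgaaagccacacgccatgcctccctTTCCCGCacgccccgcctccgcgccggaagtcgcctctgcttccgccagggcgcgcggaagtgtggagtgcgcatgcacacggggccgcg
A match lay within 50 bases of the listed start in 5 of the 6 windows shown, and in Cdc6 it began 138 bases before the start. Calls were then counted by gene, where a match in any window of a gene counted as a match. By gene, 69.4% of the members with a window had a match. That compares with 10.9% of all genes and 19.9% of genes above the median array level. In shPhf5a so few members were left uncalled that the counts cannot show whether a match goes with a fall. In shPhf5a, 20 of 24 measured members with a match and 11 of 11 without one fell, with median changes of -0.55 and -0.44. In shPaf1 the counts were 14 of 24 and 8 of 11, with medians of -0.35 and -0.31. A match is a run of letters and not a measured binding site, and these shares were not tested.

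The first comparison asked how replication transcripts differed after knockdown of Phf5a. Nearly the whole set was lower: 38 of 43 measured genes fell (88.4%), against 20.7% of all genes and 35.2% of genes above the median level. limma called 0 members higher (1, Pole, at an unadjusted p under 0.05), against 16.7% of all genes. The median change over the members was -0.54, with a range from -1.87 to 0.11, beside a median of -0.03 over all genes. The arrays of shPhf5a lay wholly below those of shControl for 39 members (90.7%), against 25.9% of all genes. A fall of at least 2-fold was called for Pclaf, Gins2, Pole2 and Rfc3, which is 9.30% of the members against 1.22% of all genes.

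After knockdown of Paf1 most of the list was lower as well, with a smaller median change. In shPaf1, 29 of 43 members fell (67.4%), against 17.8% of all genes and 30.7% of genes above the median level. limma called 0 members higher, and 0 had a mean above control at an unadjusted p under 0.05, against 18% of all genes called higher. The median change was -0.33, from -1.16 to 0.03, beside -0.01 over all genes. All shPaf1 arrays lay below all control arrays for 38 members (88.4%), against 25% of all genes. A fall of at least 2-fold was called for Pclaf, Rpa3, Gins1 and Pole2, again 9.30% of the members, against 0.978% of all genes. All members were bright: their control means ran from 8.79 to 12.5, above the median of all genes. The count in shPaf1 depended on single arrays, as 19 members fell without shControl replicate 2, without shPaf1 replicate 2 or without shPaf1 replicate 3. The shares of all genes in those fits were not counted.

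**Figure D1:**
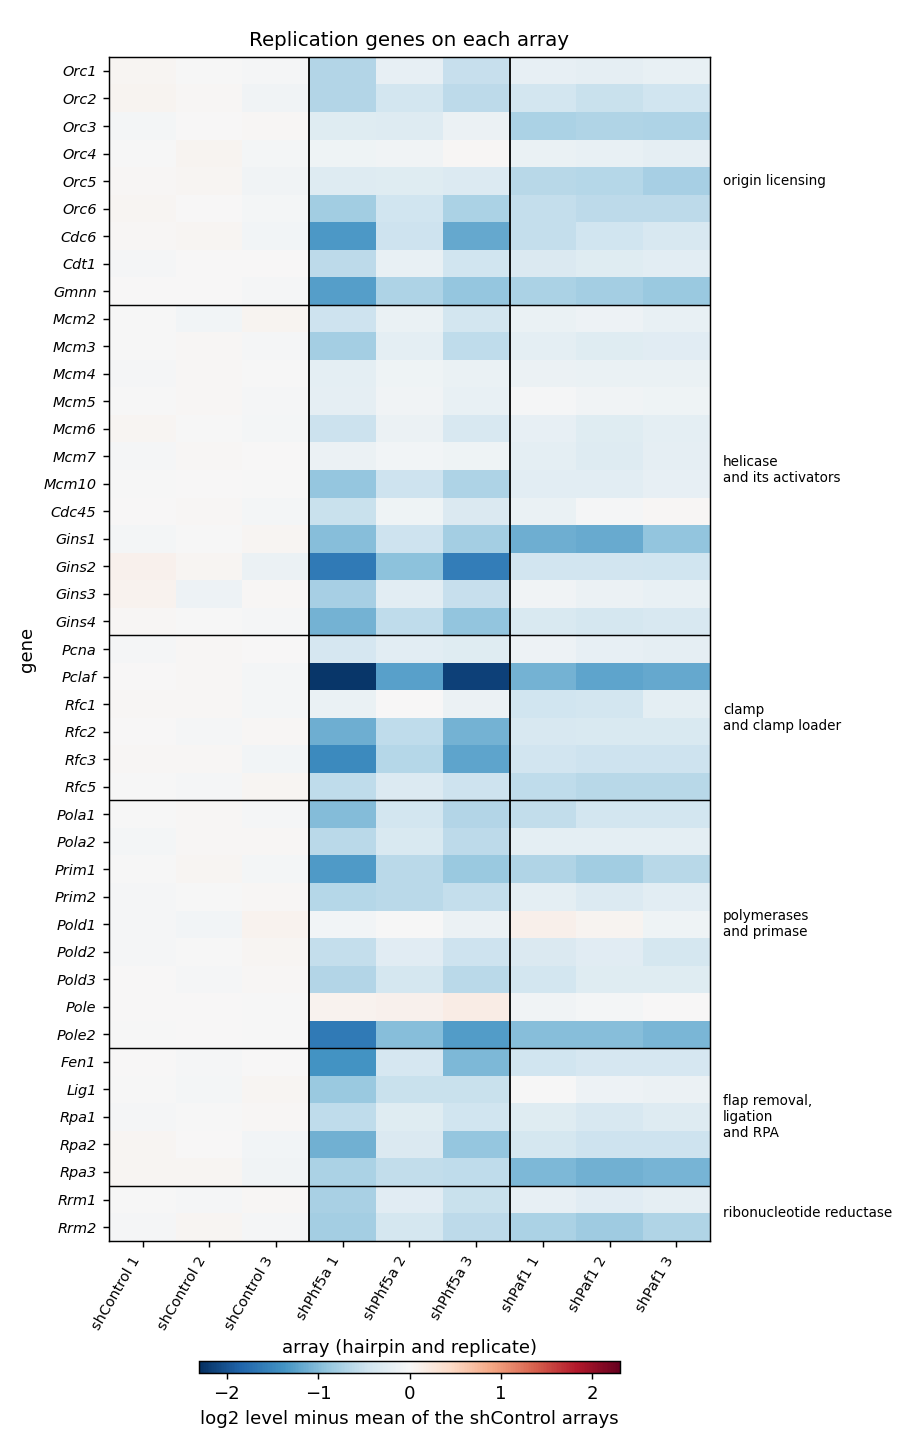
Log2 value of each of the 43 genes on each of the 9 arrays, as the difference from the mean of the 3 control arrays, with genes in rows grouped by role and arrays in columns. The shPhf5a and shPaf1 columns are below control for nearly all genes, and shPhf5a replicate 2 is closer to control than the other shPhf5a arrays for 38 of the 43.

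The comparisons share the control arrays, so the members' calls are given side by side. There were 26 members that fell in both. Another 12 passed the test in shPhf5a and not in shPaf1, namely Orc1, Cdc6, Mcm2, Mcm3, Mcm5, Mcm6, Mcm10, Cdc45, Gins3, Fen1, Lig1 and Rrm1. Only shPaf1 passed for Orc4, Mcm7 and Rfc1, and neither passed for the catalytic subunits Pold1 and Pole. Calls shared by both knockdowns were not counted over all genes, so the 26 have no background share beside them. Taken singly, 20.7% of all genes fell in shPhf5a and 17.8% in shPaf1, and 35.2% and 30.7% of genes above the median level. Of the 14 members not called in shPaf1, 9 still had all arrays below all control arrays. A call in one knockdown and not in the other is not a difference between them, which is tested further on. Without shPhf5a replicate 2, which widens the spread that all groups share in the fit, Orc1, Cdc6, Mcm2, Mcm3, Mcm6, Mcm10, Fen1 and Rrm1 also passed in shPaf1. The shPaf1 calls of Orc4, Cdt1, Mcm4, Gins2, Gins4, Pcna, Rfc2, Rfc3, Pola1, Pola2 and Rpa2 were each lost without at least 1 of the control or shPaf1 arrays. In shPhf5a the calls of Mcm4, Mcm5 and Cdc45 were lost in that way, without at least 1 of the control or shPhf5a arrays.

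Licensing factors fell in both knockdowns. Of 9 measured, 8 fell in shPhf5a and 7 in shPaf1, with median changes of -0.47 and -0.46. These are 88.9% and 77.8%, against 35.2% and 30.7% of genes above the median level. The same background shares stand beside the counts by role and complex below. In the origin recognition complex, the 6-subunit ATPase that marks origins, 5 of 6 subunits fell in each case, all except Orc4 in shPhf5a and all except Orc1 in shPaf1. Cdc6, the ATPase that joins this complex to load MCM, read 10.38, 10.40 and 10.30 in shControl, 9.04, 9.88 and 9.18 in shPhf5a, and 9.81, 9.90 and 9.98 in shPaf1. Both knockdowns lay below control on every array, and replicate 2 of shPhf5a lay within the range of shPaf1. The change of Cdc6 in shPhf5a was -0.99 (SE 0.18, adjusted p = 0.00154), and in shPaf1 it was -0.46 (SE 0.18, adjusted p = 0.0721), which was not called.

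Geminin was the licensing factor with the next largest fall in shPhf5a and the largest in shPaf1. Gmnn read 8.81, 8.80 and 8.77 in shControl, 7.53, 8.09 and 7.90 in shPhf5a, and 8.07, 8.01 and 7.94 in shPaf1. Every knockdown array was below every control array, and the knockdowns overlapped each other. Its changes were -0.95 (SE 0.12, adjusted p = 0.000164) and -0.79 (SE 0.12, adjusted p = 0.000456). Cdt1, the loader that geminin inhibits, changed by -0.41 in shPhf5a (adjusted p = 0.00672) and -0.29 in shPaf1 (adjusted p = 0.0398).

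Orc3 and Orc5, both core subunits of the origin recognition complex, were at their lowest in shPaf1. Orc3 read 10.09, 10.16 and 10.16 in shControl, 9.85, 9.85 and 10.01 in shPhf5a, and 9.42, 9.45 and 9.43 in shPaf1. Orc5 read 10.76, 10.78 and 10.65 in shControl, 10.43, 10.45 and 10.42 in shPhf5a, and 10.10, 10.07 and 9.96 in shPaf1. For both genes the groups formed 3 separate bands, with shPaf1 lowest. Orc3 changed by -0.24 in shPhf5a (SE 0.05, adjusted p = 0.00617) and by -0.71 in shPaf1 (SE 0.05, adjusted p = 8.7e-06), and Orc5 by -0.29 (SE 0.05, adjusted p = 0.00184) and -0.68 (SE 0.05, adjusted p = 1.17e-05). Orc2 fell by 0.56 and 0.46 and Orc6 by 0.66 and 0.58 in shPhf5a and shPaf1. Orc1, the subunit that comes and goes with the cell cycle, fell by 0.47 in shPhf5a and had a change of -0.18 in shPaf1 (adjusted p = 0.216). Orc4 had a change of -0.06 in shPhf5a (95% interval -0.18 to 0.06) and fell by 0.18 in shPaf1.

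The helicase and its activators, the role with the most genes, had the largest gap in counts between the knockdowns among the 6 roles. In shPhf5a 11 of 12 fell, with a median of -0.43, and in shPaf1 5 of 12, with a median of -0.22. Those are 91.7% and 41.7%, against 35.2% and 30.7% of genes above the median level. The shPaf1 share was thus not far from that of such genes. A wide gap in shares was also seen for ribonucleotide reductase, with only 2 genes, at 100% in shPhf5a and 50% in shPaf1. Without shPhf5a replicate 2, Mcm2, Mcm3, Mcm6 and Mcm10 passed in shPaf1 too, so that the gap in counts rests in part on that array. Among the MCM hexamer subunits changes were small: 5 of 6 fell in shPhf5a, between -0.16 for Mcm5 and -0.54 for Mcm3, and 2 of 6 in shPaf1, Mcm4 by 0.15 and Mcm7 by 0.24. After quantile normalization neither was called in shPaf1, with changes of -0.06 (adjusted p = 0.37) and -0.09 (adjusted p = 0.145), and 0 of the 6 subunits then passed the test in limma. Mcm7 in shPhf5a had a change of -0.09 (95% interval -0.20 to 0.01). Mcm5, the brightest member, read 12.54, 12.57 and 12.53 in shControl, 12.34, 12.47 and 12.37 in shPhf5a, and 12.52, 12.46 and 12.44 in shPaf1, so that the arrays of each knockdown stood close under those of the control. The falls of Mcm4 and Mcm5 in shPhf5a were past the threshold under 12 and 9 of 18 alternative settings.

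GINS joins MCM and Cdc45 in the moving helicase. All 4 subunits fell in shPhf5a, between -0.51 and -1.39, and 3 of 4 in shPaf1, with Gins3 at -0.13 (adjusted p = 0.471). Gins2 read 11.10, 11.03 and 10.86 in shControl, 9.36, 10.05 and 9.41 in shPhf5a, and 10.55, 10.55 and 10.54 in shPaf1. The groups did not overlap, and shPhf5a was lowest. Its change was -1.39 in shPhf5a (SE 0.16, adjusted p = 0.000106, 2.62-fold lower) and -0.45 in shPaf1 (SE 0.16, adjusted p = 0.0474), and the latter was past the threshold under 11 of 18 alternatives.

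Gins1 showed the other order. Its values were 9.27, 9.30 and 9.36 in shControl, 8.33, 8.83 and 8.53 in shPhf5a, and 8.20, 8.14 and 8.41 in shPaf1. Both knockdowns were below control on all arrays and overlapped each other. Gins1 changed by -0.75 in shPhf5a (SE 0.12, adjusted p = 0.000721) and by -1.06 in shPaf1 (SE 0.12, adjusted p = 7.95e-05, 2.09-fold lower). Gins4 read 11.84, 11.80 and 11.77 in shControl, 10.72, 11.23 and 10.89 in shPhf5a, and 11.45, 11.40 and 11.44 in shPaf1, with shPhf5a lowest and no overlap of groups. Its changes were -0.86 (SE 0.10, adjusted p = 0.000174) and -0.37 (SE 0.10, adjusted p = 0.0193). Mcm10, which helps to activate the helicase, and Cdc45, its partner in the moving helicase, fell by 0.69 and 0.31 in shPhf5a and had changes of -0.22 and -0.05 in shPaf1, neither called.

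Pclaf, a small protein that binds the sliding clamp, had the largest fall of all members in both knockdowns. Its values were 10.42, 10.44 and 10.37 in shControl, 8.17, 9.17 and 8.27 in shPhf5a, and 9.32, 9.20 and 9.23 in shPaf1. All shPhf5a arrays lay under all shPaf1 arrays, with replicate 2 only just under them, and all 6 were at least 1 unit under the control. The change was -1.87 in shPhf5a (SE 0.21, adjusted p = 0.000109, 3.67-fold lower) and -1.16 in shPaf1 (SE 0.21, adjusted p = 0.00169, 2.24-fold lower). Pcna, the clamp itself, fell by 0.30 (adjusted p = 0.00109) and 0.17 (adjusted p = 0.0254), from a control mean of 12.5.

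The clamp loader opens Pcna and closes it around primed DNA. Of its 4 measured subunits, 3 fell in shPhf5a and 4 in shPaf1. Rfc3 read 10.07, 10.08 and 9.99 in shControl, 8.58, 9.38 and 8.83 in shPhf5a, and 9.60, 9.58 and 9.57 in shPaf1. Rfc2 read 10.01, 9.97 and 10.03 in shControl, 8.88, 9.42 and 8.92 in shPhf5a, and 9.64, 9.65 and 9.65 in shPaf1. These 2 subunits had 3 bands each, with shPhf5a lowest. Rfc3 changed by -1.12 (SE 0.16, adjusted p = 0.000427, 2.17-fold lower) in shPhf5a and -0.47 (SE 0.16, adjusted p = 0.0466) in shPaf1, and Rfc2 by -0.93 (SE 0.12, adjusted p = 0.00022) and -0.35 (SE 0.12, adjusted p = 0.0429).

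The other 2 loader subunits did not follow that order. Rfc5 read 11.46, 11.44 and 11.51 in shControl, 10.88, 11.15 and 10.99 in shPhf5a, and 10.89, 10.83 and 10.84 in shPaf1, with the knockdowns overlapping. Its changes were -0.46 (SE 0.07, adjusted p = 0.00044) and -0.62 (SE 0.07, adjusted p = 6.59e-05). Rfc1, the large subunit, had a change of -0.09 in shPhf5a (95% interval -0.25 to 0.07) and fell by 0.37 in shPaf1 (adjusted p = 0.00234).

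**Figure D2:**
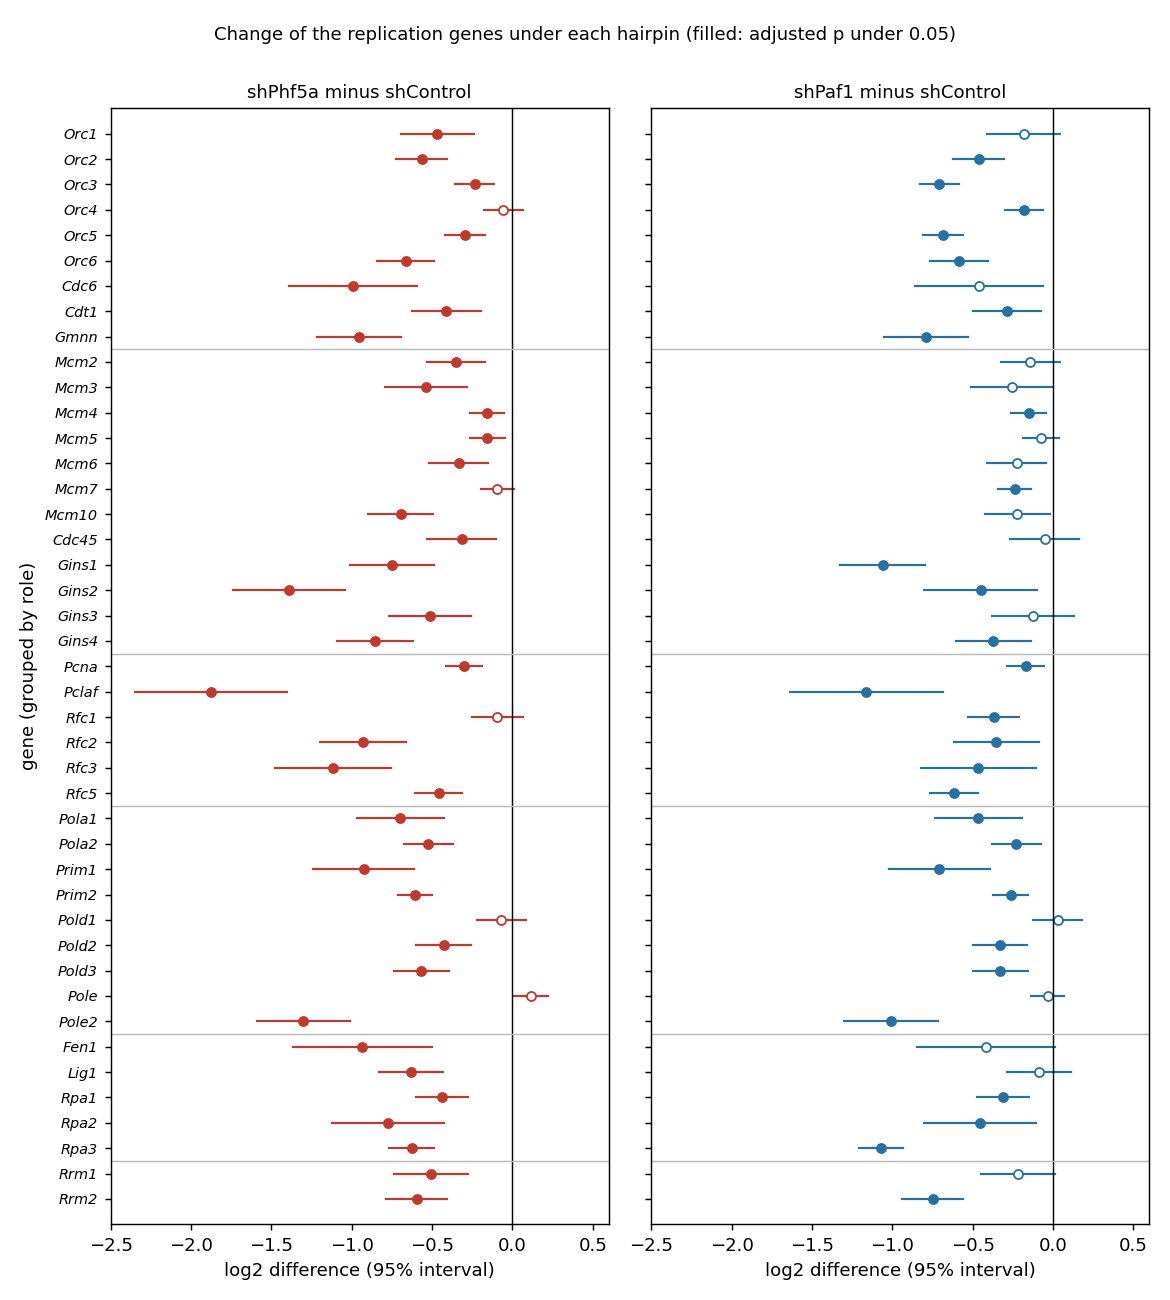
Log2 change of each gene in shPhf5a and in shPaf1 against shControl, with genes grouped by role and bars for the 95% interval from limma. Points to the left of 0 are lower than control, and Pclaf is farthest left in both, at -1.87 and -1.16.

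Among polymerases and primase, 7 of 9 genes (77.8%) fell in each knockdown, with medians of -0.57 and -0.33. Of genes above the median level, 35.2% fell in shPhf5a and 30.7% in shPaf1. All 4 genes of polymerase alpha and primase, the enzyme that starts each fragment, fell in both. Prim1, the catalytic primase subunit, read 10.17, 10.24 and 10.15 in shControl, 8.89, 9.56 and 9.34 in shPhf5a, and 9.50, 9.39 and 9.56 in shPaf1. Control arrays were above all others, and the knockdowns overlapped. Its changes were -0.93 (SE 0.14, adjusted p = 0.000576) and -0.71 (SE 0.14, adjusted p = 0.00274). Prim2, the other primase subunit, fell by 0.61 (adjusted p = 1.6e-05) and 0.26 (adjusted p = 0.0016). Pola1 fell by 0.70 and 0.46, and Pola2 by 0.52 and 0.23, where the 3 shPaf1 arrays held the same value for Pola2.

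The subunits of polymerase epsilon and delta split. Pole2, an accessory subunit of polymerase epsilon, read 10.58, 10.61 and 10.58 in shControl, 8.96, 9.61 and 9.30 in shPhf5a, and 9.61, 9.61 and 9.53 in shPaf1. All 6 knockdown arrays were well below control, and the knockdowns met at about 9.61. It changed by -1.30 (SE 0.13, adjusted p = 5.54e-05, 2.46-fold lower) and -1.01 (SE 0.13, adjusted p = 0.000201, 2.01-fold lower). Pole, the catalytic subunit, read 10.33, 10.33 and 10.32 in shControl, 10.40, 10.42 and 10.50 in shPhf5a, and 10.25, 10.28 and 10.34 in shPaf1. The shPhf5a arrays lay above control by a small margin, with a change of 0.11 (95% interval 0.01 to 0.22, adjusted p = 0.084), which passed the threshold after quantile normalization and with array weights. In shPaf1 the change of Pole was -0.03 (95% interval -0.14 to 0.07).

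Pold1, the catalytic subunit of polymerase delta, read 9.45, 9.43 and 9.57 in shControl, 9.42, 9.47 and 9.36 in shPhf5a, and 9.61, 9.55 and 9.39 in shPaf1. The 3 groups overlapped. Its changes were -0.07 (95% interval -0.22 to 0.08) and 0.03 (95% interval -0.12 to 0.18). The accessory subunits Pold2 and Pold3 fell by 0.43 and 0.57 in shPhf5a and by 0.33 each in shPaf1.

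Of the 5 genes for flap removal, ligation and RPA, 5 fell in shPhf5a and 3 in shPaf1, with medians of -0.63 and -0.42. Of genes above the median level, 35.2% and 30.7% fell. Fen1, the flap nuclease, read 8.99, 8.96 and 9.0 in shControl, 7.60, 8.59 and 7.95 in shPhf5a, and 8.52, 8.59 and 8.59 in shPaf1. All knockdown arrays were below control, and replicate 2 of shPhf5a was at the level of shPaf1. Its change was -0.93 in shPhf5a (SE 0.19, adjusted p = 0.00347) and -0.42 in shPaf1 (SE 0.19, adjusted p = 0.132), not called. A second, dimmer probe set of Fen1 read lower in both, by -0.53 (adjusted p = 3.73e-05) and -0.39 (adjusted p = 0.00016), with all probe sets tested together.

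Lig1, the ligase that seals fragments, read 10.38, 10.34 and 10.43 in shControl, 9.53, 9.87 and 9.87 in shPhf5a, and 10.37, 10.27 and 10.25 in shPaf1. The shPhf5a arrays stood clear of both other groups, and the shPaf1 arrays overlapped control. Lig1 changed by -0.63 (SE 0.09, adjusted p = 0.000393) in shPhf5a and by -0.09 in shPaf1 (95% interval -0.29 to 0.11).

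RPA, the trimer that coats single-stranded DNA, fell in all 3 subunits in both knockdowns. Rpa3, its smallest subunit, read 11.67, 11.68 and 11.54 in shControl, 10.90, 11.07 and 11.04 in shPhf5a, and 10.60, 10.52 and 10.57 in shPaf1. The groups formed 3 bands, with shPaf1 lowest. Its change was -0.63 in shPhf5a (SE 0.06, adjusted p = 5.02e-05) and -1.07 in shPaf1 (SE 0.06, adjusted p = 2.13e-06, 2.10-fold lower). The second probe set of Rpa3 gave -0.53 (adjusted p = 0.000777) and -1.23 (adjusted p = 4.89e-06). Rpa1 fell by 0.44 and 0.31, and Rpa2 by 0.77 and 0.45 (adjusted p = 0.0455 in shPaf1).

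Ribonucleotide reductase makes deoxynucleotides from ribonucleotides. Its small subunit Rrm2 read 11.45, 11.52 and 11.44 in shControl, 10.70, 11.07 and 10.86 in shPhf5a, and 10.74, 10.65 and 10.78 in shPaf1. Both knockdowns were below control and overlapped each other. Rrm2 changed by -0.60 (SE 0.08, adjusted p = 0.000397) and -0.75 (SE 0.08, adjusted p = 9.01e-05). A dimmer second probe set gave larger changes, of -0.99 and -1.76. Rrm1, the large subunit, fell by 0.51 in shPhf5a and had a change of -0.22 in shPaf1 (adjusted p = 0.135).

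**Figure D3:**
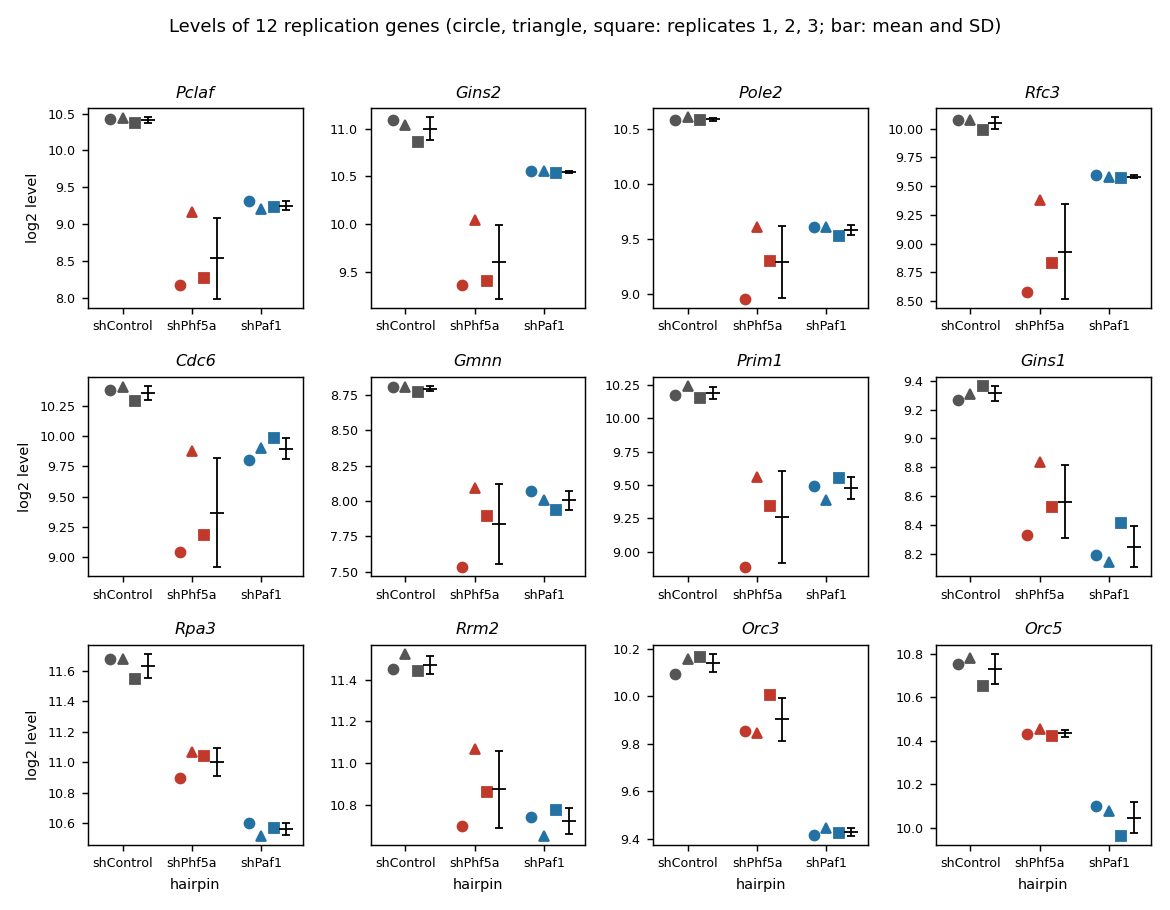
Log2 values on each array for 12 members with large changes, 1 panel a gene on its own vertical axis, with shControl, shPhf5a and shPaf1 side by side, replicates 1, 2 and 3 as circle, triangle and square, and bars for mean and SD. Control points lie above both knockdowns in each of these 12 panels, and shPaf1 lies wholly below shPhf5a for Rpa3, Orc3 and Orc5. For Gins1 and Rrm2 the shPaf1 mean is also the lowest, with the knockdowns overlapping.

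The direct comparison asked whether the knockdowns differed from each other. Here 12 members were lower in shPhf5a than in shPaf1 (27.9%), against 16.3% of all genes and 27.4% of genes above the median level, and 6 were higher (14%), against 12.7% and 20.7%. With all 9 arrays these shares are near those of genes above the median level. The count depended on shPhf5a replicate 2: without it 29 of 43 members (67.4%) were lower, against 19.2% of all genes. With array weights 20 members were lower. Shares among genes above the median level were not counted in these settings, nor that of all genes with array weights. The arrays of the knockdowns did not overlap for 11 members with shPhf5a lower and 7 with shPhf5a higher, against 21.3% and 16.3% of all genes. The median difference was -0.21, from -0.94 to 0.47, beside -0.02 over all genes.

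Gins2 differed most, at -0.94 (SE 0.16, adjusted p = 0.00141). Pclaf differed by -0.71 (SE 0.21, adjusted p = 0.0297), Rfc3 by -0.65 (SE 0.16, adjusted p = 0.0122), Rfc2 by -0.58 (SE 0.12, adjusted p = 0.0048), Lig1 by -0.54 (SE 0.09, adjusted p = 0.00133) and Cdc6 by -0.53 (SE 0.18, adjusted p = 0.0494). Gins4, Mcm10, Gins3, Prim2, Pola2 and Pold3 were lower too, by -0.48 to -0.24. The difference of Pclaf was past the threshold under 12 of 18 alternatives and that of Cdc6 under 7. Gins3 and Pclaf lost the call without shPhf5a replicate 1 or 3 or any 1 of the shPaf1 arrays, and Cdc6 and Pold3 also without any 1 of the control arrays, except that Pold3 kept it without shPaf1 replicate 1.

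In the other direction Orc3 differed by 0.47 (SE 0.05, adjusted p = 0.000162), Rpa3 by 0.44 (SE 0.06, adjusted p = 0.00052) and Orc5 by 0.39 (SE 0.05, adjusted p = 0.000537). Rfc1, Pole and Mcm7 were higher in shPhf5a by 0.27, 0.15 and 0.15, with adjusted p of 0.0154, 0.038 and 0.0358, and the last 2 were past the threshold under 9 and 8 of 18 alternatives. Rfc1 lost the call without shPaf1 replicate 1 or 2. For Gins1 the difference of 0.31 was not called (adjusted p = 0.0773). The helicase group had 4 members lower and 1 higher, the clamp group 3 and 1, the polymerases 3 and 1, and the licensing factors 1 and 2. Of genes above the median level, 27.4% were lower and 20.7% higher.

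**Figure D4:**
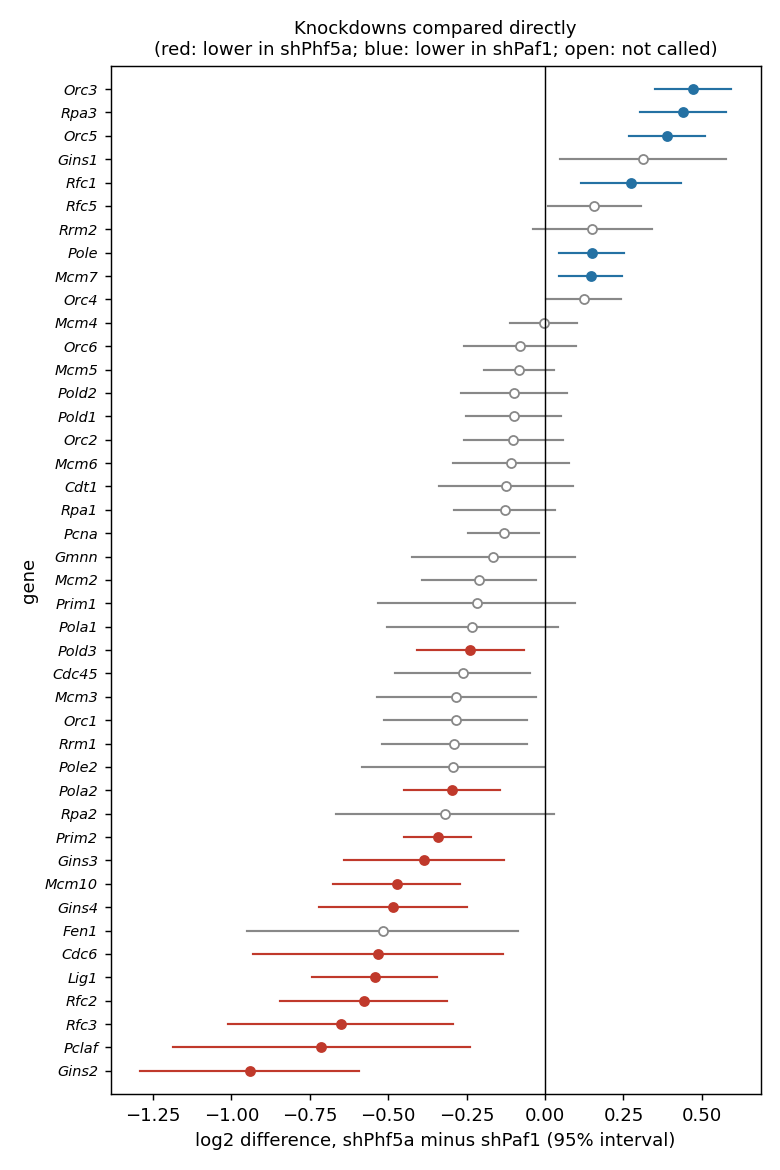
Difference between shPhf5a and shPaf1 for each of the 43 genes, in log2 units with 95% intervals, ordered by size. Gins2 is at one end at -0.94 and Orc3 at the other at 0.47, and 12 genes called lower and 6 called higher are marked.

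Replicate 2 of shPhf5a stood nearer to control than the other shPhf5a arrays. The median deviation of the 43 members from the control mean was -0.68, -0.33 and -0.55 on shPhf5a replicates 1, 2 and 3, and -0.35, -0.35 and -0.29 on the shPaf1 arrays. Replicate 2, where Phf5a itself was least reduced, was the shPhf5a array nearest to control for 38 of the 43 members, and for 50.5% of all genes. Without it 38 members again fell in shPhf5a (22.4% of all genes), 37 fell in shPaf1 (19.7%), whose own arrays were not altered, and in the direct comparison 29 were lower (19.2%) and 5 higher (13.7%). The 12 lower calls of the direct comparison thus became 29 when the array nearest to control was left out. Without shPhf5a replicate 1 or 3 there were instead fewer lower calls, as Gins3, Pclaf, Cdc6 and Pold3 then lost theirs. Whether the smaller changes on that array go with its Phf5a level was not tested.

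**Figure D5:**
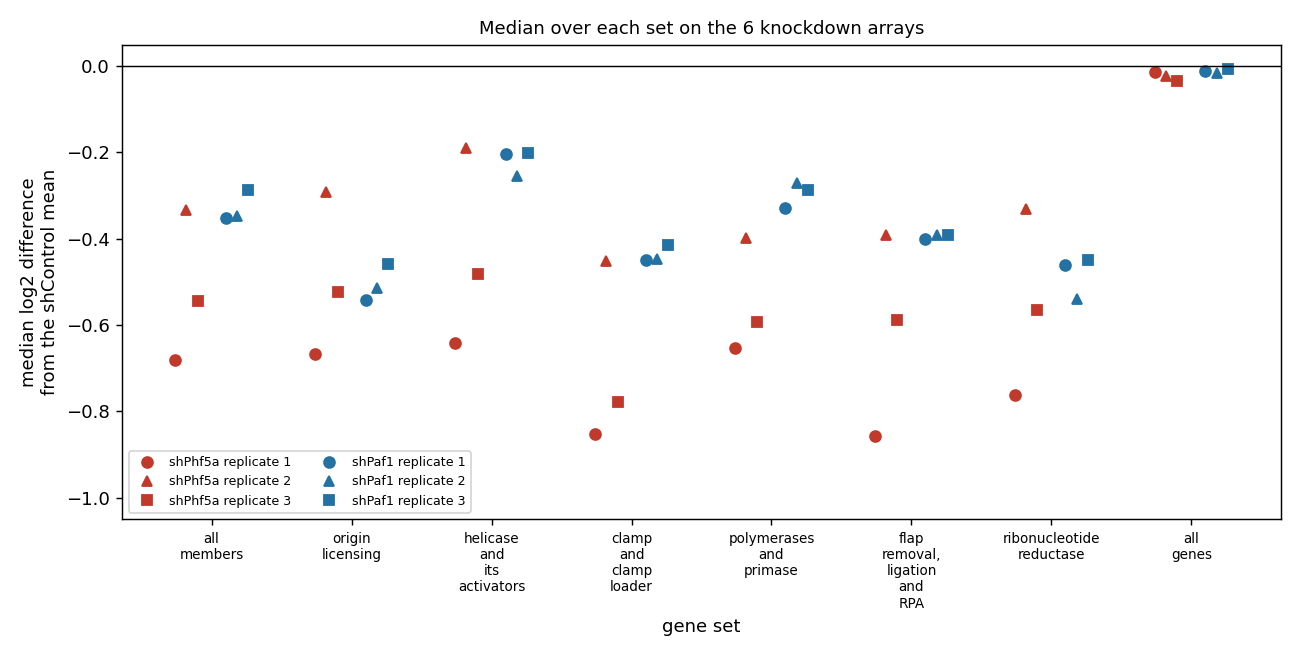
Median over the members of each role of the log2 deviation from the control mean, for each of the 6 knockdown arrays, with the median of all genes at the right. Over all members shPhf5a replicate 2 (-0.33) sits at the level of the shPaf1 arrays (-0.35 to -0.29), and the other shPhf5a arrays are lower.

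Genes that work beside the members were read from 5 related lists, whose measured genes were all above the median level. Among genes above that level, 35.2% fell and 26.9% rose in shPhf5a, and 30.7% fell and 29.2% rose in shPaf1, against 20.7%, 16.7%, 17.8% and 18% of all genes. Of 27 other fork and origin firing factors, 15 fell (55.6%) and 1 rose in shPhf5a and 18 fell (66.7%) and 1 rose in shPaf1, with medians of -0.27 and -0.29. Pole3, an accessory subunit of polymerase epsilon, changed by -0.96 in shPhf5a (adjusted p = 0.000232) and -0.23 in shPaf1 (adjusted p = 0.194). Tipin, of the fork protection complex, fell by 0.84 and 0.71. Ticrr, which helps to activate origins, rose by 0.49 in shPhf5a (adjusted p = 0.000131) and fell by 0.24 in shPaf1 (adjusted p = 0.00714), a direct difference of 0.74 (adjusted p = 1.91e-05).

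For deoxynucleotide supply, 13 of 18 genes measured fell (72.2%) and 2 rose in shPhf5a, against 35.2% and 26.9% of genes above the median level. In shPaf1 12 fell (66.7%) and 1 rose, against 30.7% and 29.2%, and the medians were -0.61 and -0.45. Tk1, the salvage kinase for thymidine, changed by -1.74 (SE 0.14, adjusted p = 2.08e-05) and -0.98 (SE 0.14, adjusted p = 0.000462). Dctpp1, which clears modified dCTP, changed by -1.40 in shPhf5a (adjusted p = 0.000264) and by -0.44 in shPaf1 (adjusted p = 0.0972). Nme1 changed by -0.97 in shPhf5a (adjusted p = 0.00668) and by -1.10 in shPaf1 (adjusted p = 0.00343), the largest fall of this list in shPaf1. Dut, the dUTPase, fell by 0.90 and 0.80. Cad, of pyrimidine synthesis and named after its values were seen, rose in both, by 0.33 and 0.48.

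Replication-coupled chromatin factors fell for 10 of 12 in shPhf5a (83.3%, against 35.2% of genes above the median level) and for 5 of 12 in shPaf1 (41.7%, against 30.7%), and 2 rose in each. The subunits of chromatin assembly factor 1 went opposite ways. Chaf1b changed by -1.02 (adjusted p = 0.000108) and -0.34 (adjusted p = 0.0454), whereas Chaf1a rose by 0.32 (adjusted p = 0.000638) and 0.58 (adjusted p = 1.52e-05).

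Of 18 checkpoint and licensing control genes, 9 fell (50%) and 1 rose in shPhf5a, and 11 fell (61.1%) in shPaf1, against 35.2% and 30.7% of genes above the median level that fell. Ccne1, cyclin E1, changed by -1.18 (adjusted p = 0.000212) and -0.59 (adjusted p = 0.0108). Atr, the kinase that answers to stalled forks, rose by 0.35 in shPhf5a (adjusted p = 0.00105) and fell by 0.62 in shPaf1 (adjusted p = 2.97e-05), and the direct difference was 0.96 (adjusted p = 5.3e-06).

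Of 17 E2F, DP and pocket proteins, 6 fell (35.3%) and 4 rose (23.5%) in shPhf5a, and 5 fell (29.4%) and 4 rose in shPaf1. These shares are near those of genes above the median level, 35.2% and 26.9% in shPhf5a and 30.7% and 29.2% in shPaf1. Rb1, the pocket protein that restrains E2F factors, rose by 1.45 in shPhf5a (SE 0.12, adjusted p = 2.18e-05) and by 0.79 in shPaf1 (SE 0.12, adjusted p = 0.000578). Tfdp1, the DP partner of E2F factors, fell by 0.81 and 0.41. E2f8, a repressor of the family, changed by -0.85 in shPhf5a (adjusted p = 0.000519) and -0.06 in shPaf1 (adjusted p = 0.802).

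Across the 43 genes the change was only loosely related to the control level. Spearman's rho between the control mean and the change was 0.21 in shPhf5a and 0.10 in shPaf1, a description over genes measured on the same arrays, which are not independent replicates.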

How the data were processed

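RNA from 9 samples was hybridised to Affymetrix whole-transcript arrays, starting from 125 ng of total RNA per the labels' protocols. The authors deposited a log2 value for every probe set on every array. How these were background-corrected and normalized, with which software and on which log base, is not given in the sources used here. The range, 4.35 to 13.7, was read as that of a log2 scale. On another base the fold changes would differ and the calls would not. The number of arrays limits the precision, and detection calls and scanner files were not used here. No array date or slide was used, so no batch could be tested, and 0 columns of values stayed without a sample.

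Of 33793 probe sets, 23521 carried 1 symbol in the annotation of the platform, 1814 carried several and 8458 had none in the table used here. The brightest probe set of each of 22180 genes was kept. Groups and replicate numbers came from sample titles. Linear models were fitted to all 9 arrays, with a mean for each group, by lmFit and eBayes of limma 3.58.1 (R 4.3.3), with Benjamini-Hochberg adjustment over all genes at 0.05. Standard errors and 95% intervals are those of that fit. No array was dropped or imputed. On simulated data for shPhf5a against shControl with 22180 genes, the test recovered 28%, 68%, 96% and 100% of 50 genes each that were shifted by 0.25, 0.5, 1 and 2 log2 units, and 5 of 21980 unchanged genes were called. Far fewer genes were shifted there than were called in the data, where 20.7% fell and 16.7% rose. The simulated noise was normal and independent, with no deviating array. These rates check the procedure and do not give the power of the test on the real arrays.

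The members, related lists and markers were chosen with earlier results of these data known. Values on every array are given for the 10 largest falls among called members in each knockdown and the 6 largest differences in the direct comparison, with a few further members (Mcm5, Pole and Pold1) named after their values were seen. From each related list up to 4 called genes of largest change per comparison could be named. Alternatives were quantile normalization, centring of arrays, a filter on dim genes, other choices of probe set, array weights, a variance with trend and robust options, fitting only the 6 arrays compared, a replicate block and leaving out each array.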

Additional observations from a re-analysis of the deposited data

How the results depend on the processing

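Of the alternatives listed, no setting turned a called member around. Over the 3 comparisons and 18 settings, member results kept their direction and side of the threshold in 2095 cases, lost a call in 137 and gained one in 82. Shares of all genes were counted only for the fit without shPhf5a replicate 2. The other counts by setting therefore have no background, and a setting can change calls over all genes. Members called lower in shPhf5a numbered 35 to 38 when single arrays were left out. Quantile normalization and array weights each made 1 member (Pole) higher in shPhf5a. In shPaf1 the count ranged from 19 to 37 over left-out arrays, and the median was -0.27 after quantile normalization and -0.39 after centring. In the direct comparison, left-out arrays gave 8 to 29 members lower and 3 to 9 higher, with 3 higher without shPaf1 replicate 1 or 2 and 29 lower without shPhf5a replicate 2, and array weights gave 20 lower. Members not called changed sign as follows. In shPaf1, quantile normalization gave 0.0093 for Mcm5 and 0.030 for Pole, and centring gave -0.029 for Pold1, which ranged from -0.016 to 0.093 over left-out arrays and was below 0 without shPaf1 replicate 1. For the direct difference of Mcm4, centring gave 0.024 and left-out arrays gave -0.035 to 0.028, above 0 without shPhf5a replicate 1 (0.028) or shPaf1 replicate 1 (0.0021), and for Rpa1 the mean over probe sets gave 0.042. The cause was not tested.

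Same-numbered arrays of different groups had correlations of their deviations from -0.06 to 0.11, so the numbers were not taken to pair the samples. With the replicate number as a block, 37 members fell in shPhf5a and 28 in shPaf1, with 12 lower and 4 higher in the direct comparison. The shares of all genes called with the block were not counted.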

Other observations

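For 5 members a second probe set was on the array. With all probe sets tested together by limma, the second probe set of Rpa1 changed by -0.45 in shPhf5a (adjusted p = 0.0502) and by -0.67 in shPaf1 (adjusted p = 0.00837), where the brighter one gave -0.44 and -0.31. The second probe set of Pole, at 5.23 to 5.44 on all arrays, gave 0.01 and -0.07, neither called. For Rrm2 the dimmer probe set differed between the knockdowns by 0.76 (adjusted p = 0.000833), with shPaf1 lower, while the brighter one gave 0.15, not called (adjusted p = 0.239).

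Some values repeated exactly between arrays. Between 653 and 995 of the 22180 genes had the same deposited value on a given pair of arrays of 1 group. Repeats between groups were not counted but did occur. Fen1, for example, read 8.58941 on shPhf5a replicate 2 and on shPaf1 replicates 2 and 3.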
